A study of Mus musculus with 14 samples.

Results

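Growth hormone (Gh), prolactin (Prl), pro-opiomelanocortin (Pomc), the shared glycoprotein hormone subunit (Cga), the beta subunits of thyrotropin, follitropin and lutropin (Tshb, Fshb and Lhb), the transcription factor Pou1f1 and the receptor Ghrhr were followed through 14 RNA sequencing libraries of mouse brainstem tissue. These 9 genes were selected by symbol in the deposited gene table, out of 55422 entries of the count table, and their levels in these same libraries were what had brought them to attention. Their levels, the ratios between them, their immunoprecipitate to homogenate ratios and their relation to the library numbers are therefore given as a description. For these genes, the fits of immunoprecipitate against homogenate and of library numbers give log2 changes and standard errors, without p-values or calls.

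The anterior pituitary, a gland below the hypothalamus and outside the brainstem, is built from cell types that are each defined by the hormone they secrete. Somatotrophs make growth hormone, lactotrophs prolactin, thyrotrophs Tshb with Cga, gonadotrophs Fshb and Lhb with Cga, and corticotrophs, like the melanotrophs of the intermediate lobe, process Pomc into smaller peptides. Pou1f1, also called Pit-1, is needed for the somatotroph, lactotroph and thyrotroph lineages, and Ghrhr lets somatotrophs respond to the hypothalamic releasing hormone. Pomc is also made by neurons of the hypothalamus.

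The libraries came from 7 mice of the genotype TH-Cre;Slc6a2-eGFP/Rpl10a on a C57Bl/6 background, infused in the locus coeruleus, the main noradrenergic nucleus of the brain, at 2 to 3 months of age. In this genotype a Th transgene drives Cre, and an Slc6a2 (noradrenaline transporter) transgene drives a ribosomal protein tagged with green fluorescent protein, by which ribosomes of noradrenergic cells can be pulled down with their RNA. The infusion delivered human tau with the P364S substitution in 4 animals (B, C, L and M) or enhanced yellow fluorescent protein (EYFP) in 3 (H, I and K). Each animal gave a total homogenate (pre-IP) and an immunoprecipitate (IP), so the groups were tau pre-IP (n = 4), EYFP pre-IP (n = 3), tau IP (n = 4) and EYFP IP (n = 3). Library numbers ran up to 11 for animals B, C, H and I and from 17 for animals K, L and M.

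Total counts lay between 41843489 and 65664551 per library, so that 3 counts, taken as the floor of detection, corresponded to 0.0457 to 0.0717 counts per 1000000 counts of the library (CPM). This floor covers counting error only, since PCR copies of a molecule were counted as separate reads. Animal M, labelled female, held 674 and 1153 counts of 4 Y-linked genes in pre-IP and IP and 0 and 21 of Xist, while the other animals labelled female held at most 4. Both libraries labelled EYFP of animal K held human tau construct reads, 408 and 398 counts, against at most 18 in animals H and I and at least 3527 in the tau animals. The RNA integrity number was 4.2 in the IP of animal I and at least 7.7 in the other libraries.

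Gh (chromosome 11, 106300271 to 106301865, minus strand of GRCm38, as are all positions below unless stated) had the highest counts of the 9 genes in animals L and M. In pre-IP it stood at 22.6 CPM in B, 12.1 in C, 4437 in L and 558 in M among the tau animals, and at 27.4 in H, 3.49 in I and 224 in K among the EYFP animals. In IP the same animals had 12.2, 8.20, 3311 and 558 CPM (B, C, L and M) and 33.4, 11.7 and 259 CPM (H, I and K). Animals L, M and K were thus high in both fractions and B, C, H and I low, whereas the tau and EYFP groups overlapped. Per kilobase of exon, Gh took the first place among all entries in both libraries of L, place 41 in the pre-IP of M and place 195 in that of K, against places 2020 to 7566 in the pre-IP of the other animals. Because these are bulk samples, fewer cells of a type and less RNA per cell cannot be told apart for this gene or any other.

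Prl (chromosome 13, 27057570 to 27065205, plus strand) had 24.6 CPM in B, 22.4 in C, 963 in L, 177 in M, 53.8 in H, 0.922 in I and 410 in K in pre-IP. In IP it had 19.99, 16.2, 736 and 219 CPM in B, C, L and M, and 56.7, 10.5 and 480 CPM in H, I and K. The same 3 animals were high, but K here exceeded M, the reverse of Gh. The mouse genome holds many placental relatives of prolactin next to Prl, and 25 of them were listed to see whether the signal spread over the family. Summed, these 25 had at most 0.20 CPM in any library, so the family's counts lay almost wholly on Prl.

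**Figure D1:**
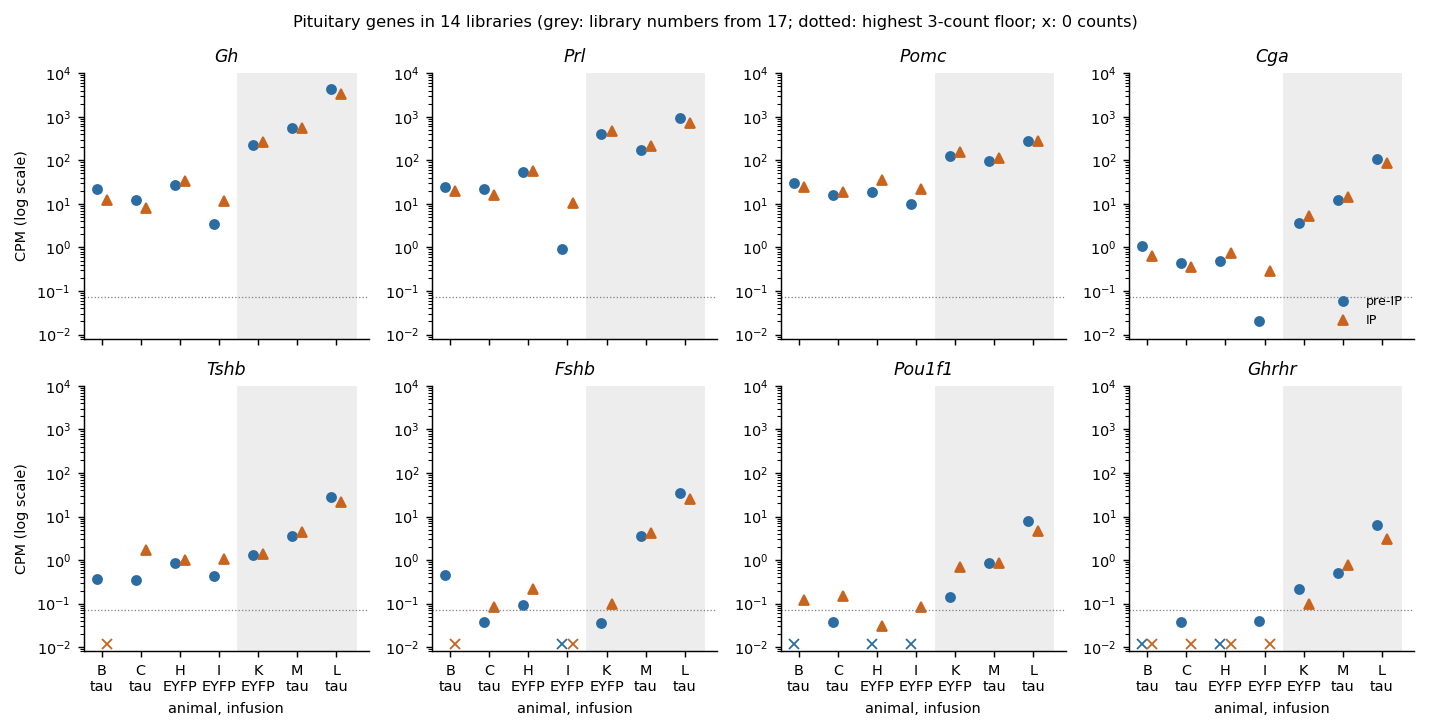
CPM on a log axis of 8 of the 9 genes (Lhb had 0 counts throughout) for each animal, with pre-IP as circles, IP as triangles and libraries at 0 as crosses. Animals K, M and L, in grey, lie above the other 4 for Gh, Prl, Pomc and Cga in both fractions, and Fshb in K lies at 0.036 and 0.099 CPM, among the low animals.

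The 250 bases before the start site of Prl and of Pou1f1 are shown because both held matches to TATNCAT, the core letters bound by the Pou1f1 protein, and because RNA of the factor and of Prl was measured in the same libraries. The sequences are those of RefSeq for GRCm38.p6, plus strand, 5′ to 3′, with matches on either strand in capitals (Prl at chr13:27057320-27057569 and Pou1f1 at chr16:65520262-65520511).
Prl: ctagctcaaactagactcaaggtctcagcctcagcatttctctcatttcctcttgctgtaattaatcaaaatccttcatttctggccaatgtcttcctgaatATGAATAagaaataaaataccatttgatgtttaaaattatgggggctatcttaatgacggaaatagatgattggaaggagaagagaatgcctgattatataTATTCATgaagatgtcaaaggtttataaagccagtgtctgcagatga
Pou1f1: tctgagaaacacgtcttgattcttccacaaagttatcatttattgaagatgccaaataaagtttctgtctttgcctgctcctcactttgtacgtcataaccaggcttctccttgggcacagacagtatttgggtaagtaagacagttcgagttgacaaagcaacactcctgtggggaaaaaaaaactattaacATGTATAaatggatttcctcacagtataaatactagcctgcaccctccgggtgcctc
In Prl the matches began 148 bases (minus strand) and 47 bases (plus strand) before the start site, and in Pou1f1 the match began 57 bases before it (minus strand). Promoters of 7 of the 9 genes were in the RefSeq table, without Gh and Ghrhr, and the windows of the other 5 (Tshb, Fshb, Cga, Lhb and Pomc) held no match, nor did a further Pou1f1 window in the table, which starts at position 65523059. Of all 32851 windows of the same length, 7.92% held at least 1 match. A match is a description of letters and shows neither binding nor a cause.

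Pomc (chromosome 12, 3954951 to 3960642, plus strand) covered a narrower range from the lowest to the highest animal than Gh and Prl did. Its pre-IP values were 29.5 CPM in B, 16.4 in C, 279 in L, 96.2 in M, 19.1 in H, 9.85 in I and 125 in K, and its IP values 24.6, 18.97, 281 and 110 CPM in B, C, L and M and 34.6, 21.9 and 158 CPM in H, I and K. The lowest of K, L and M was 3.26 times the highest of B, C, H and I in pre-IP and 3.19 times in IP. For Gh these factors were 8.17 and 7.76, and for Prl 3.28 and 3.86, so by this measure Prl was close to Pomc. In animal I, where Gh and Prl were lowest, Pomc kept 491 counts in pre-IP against 46 of Prl.

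The shared subunit Cga (chromosome 4, 34893779 to 34907370, plus strand) followed Gh. It had 1.09 CPM in B, 0.442 in C, 106 in L, 12.1 in M, 0.478 in H, 0.020 in I (1 count) and 3.68 in K in pre-IP, and 0.623, 0.363, 85.2, 14.7, 0.761, 0.290 and 5.29 CPM in the same order in IP. L was 8.75 times M and 28.7 times K in pre-IP. Of its 954 exon bases, 305 are also annotated to the noncoding gene Platr9.

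Tshb (chromosome 3, 102775465 to 102782718, minus strand) had 28.2 CPM in L and 3.64 in M in pre-IP, 1.28 in K, and from 0.346 to 0.860 in B, C, H and I. In IP it had 21.6, 4.50 and 1.42 CPM in L, M and K, while C, with 1.75, exceeded K. Fshb (chromosome 2, 107056140 to 107059656, minus strand) had 1954 counts in the pre-IP of L (34.0 CPM) and 226 in that of M (3.64 CPM). In K it had 2 counts in pre-IP and 6 in IP, although the same libraries held 202 and 321 counts of Cga and 12266 and 15738 of Gh. In B it had 22 counts in pre-IP and 0 in IP, and in C, H and I from 0 to 14 counts per library. The level of the follitropin gene in K thus lay among those of the low animals in both fractions, unlike those of Gh, Prl, Pomc and Cga.

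Lhb had 0 counts in all 14 libraries, which allows up to 0.0457 to 0.0717 CPM depending on depth. Its annotation bears on that value. The gene table gives the symbol to a short entry (chromosome 7, 45420820 to 45421897, plus strand) and to a longer one (45418353 to 45421854). Of the 678 exon bases of the short entry, 635 are also exon of the longer entry and the other 43 are exon of Ruvbl2, so 0 bases belong to it alone. Whether reads shared between annotated genes were dropped at counting was not tested. The longer entry had from 0 to 1.15 CPM and was not higher in K, L and M, with 0.644 CPM in the pre-IP of L against 1.15 in that of C.

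Pou1f1 (chromosome 16, 65520511 to 65535005, plus strand) had 446 counts (7.76 CPM) in the pre-IP of L, 53 (0.854 CPM) in that of M and 8 (0.146 CPM) in that of K, against 0 to 2 counts in the other animals. In IP it had 236 counts in L, 46 in M and 43 in K, against 2 to 7 in the others. Ghrhr (chromosome 6, 55376295 to 55388530, plus strand) had 360, 32 and 12 counts in the pre-IP of L, M and K and 154, 41 and 6 in IP. It had 0 to 2 counts in every library of B, C, H and I. For these lineage genes only L had more than 53 counts in a library.

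Summed over Gh, Prl, Pomc, Cga, Tshb, Fshb and Lhb, the hormone genes took 0.585% of all counts in the pre-IP of L (95% Wilson interval 0.583 to 0.587) and 0.446% in its IP (0.444 to 0.448). In M the shares were 0.0850% (0.0843 to 0.0857) and 0.0910% (0.0902 to 0.0919), and in K 0.0764% (0.0757 to 0.0771) and 0.0905% (0.0897 to 0.0912). In the other animals they were from 0.00147% to 0.0127%. The intervals cover counting error only.

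The order of the genes by level was compared per kilobase of exon, where the summed exon length of all annotated transcripts divides the CPM. In the pre-IP of L the order was Gh (5147 CPM per kilobase), Prl (684), Pomc (212), Cga (111), Fshb (21.2), Tshb (6.19), Pou1f1 (1.99) and Ghrhr (1.80). M showed the same order at lower levels, from 647 for Gh to 0.148 for Ghrhr. In K, Prl came first (291), ahead of Gh (260) and Pomc (94.9), and Cga was at 3.86. With 1 library per animal and fraction, neighbours in this order cannot be set against a spread within an animal. Over the 4 tau pre-IP libraries Gh was 1257 ± 2135 CPM and Prl 297 ± 450 CPM (SD), so the spread between animals exceeded the mean for both.

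The proportions between hormones differed between animals and were close between the fractions of an animal where counts were high. Prl per 100 Gh, each per kilobase, was 13.3 in pre-IP and 13.6 in IP of L, 19.4 and 23.98 in M, and 112 and 113 in K. It was 120 and 104 in H, 114 and 121 in C, 66.6 and 101 in B, and 16.2 and 54.9 in I, where pre-IP Prl rested on 46 counts. Of the 3 animals with high levels, K thus carried several times more prolactin per growth hormone than L or M, at a labelled female sex with 32 and 54 Xist counts and at most 3 Y-linked counts. L is labelled male, and M holds Y-linked and Xist counts as given above. B and I are labelled male too. The ratios of both lay below those of C, H and K, labelled female, in both fractions. Those of B, 66.6 and 101, were nearer to C, H and K than to L, while those of I were 16.2 and 54.9. In rodents the pituitary makes more prolactin in females than in males; the part of sex in these ratios was not tested, with so few animals and 1 label in doubt.

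Pomc per 100 Gh was 4.12 in L, 11.3 in M and 36.5 in K in pre-IP, and 45.7 to 185 in the other animals. Cga per 100 Gh stayed in a narrower range, from 1.49 in K to 4.35 in B among pre-IP libraries above the floor. Fshb per 100 Cga was 19.2 and 18.1 in the fractions of L and 17.99 and 17.3 in M, but 1.11 in the IP of K. Tshb per 100 Cga was 5.58, 6.32 and 7.26 in the pre-IP of L, M and K. Fshb was thus low against Cga in K, while Tshb was not.

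**Figure D2:**
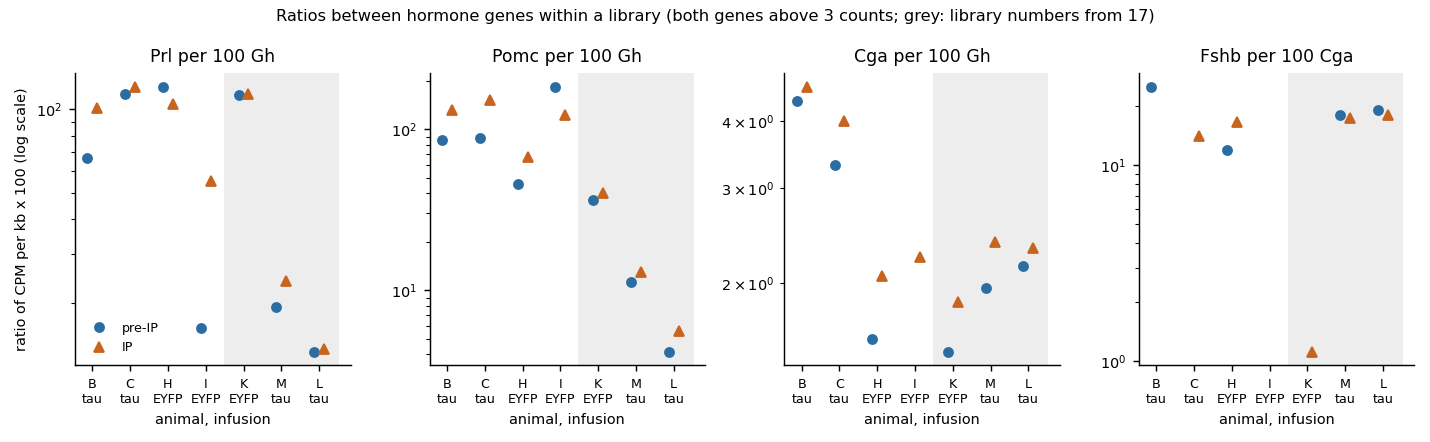
Ratios of CPM per kilobase, times 100, within each library on log axes that differ between panels, for Prl, Pomc and Cga over Gh and Fshb over Cga, with libraries of 3 counts or fewer left out. Prl per 100 Gh lies at 13.3 to 23.98 in L and M and at 112 to 113 in K, and Fshb per 100 Cga falls to 1.11 in the IP of K.

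Each IP was set against its own pre-IP to see whether these RNAs came down with the tagged ribosomes. For Gh the ratio was 0.54 in B, 0.68 in C, 0.75 in L and 1.00 in M, and 1.22 in H, 3.36 in I and 1.16 in K. For Prl it was 0.81, 0.72, 0.76 and 1.24 in the tau animals and 1.05, 11.4 and 1.17 in H, I and K. The median over the pituitary genes above the floor in both fractions was 0.69 in B (4 genes), 0.82 in C (5), 0.76 in L (8), 1.20 in M (8), 1.41 in H (6), 2.85 in I (4) and 1.17 in K (7). Noradrenergic genes, which the method is built to enrich, had medians over 11 genes of 19.3 in B, 10.3 in C, 9.03 in L, 3.46 in M, 1.57 in H, 1.78 in I and 1.98 in K. In L, where the pituitary RNAs were most abundant, all 8 pituitary genes lay between 0.49 and 1.01 and the 11 noradrenergic genes between 3.43 and 54.2. In I the pituitary genes lay above the noradrenergic median, from a pre-IP library with the lowest pituitary counts of all.

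**Figure D3:**
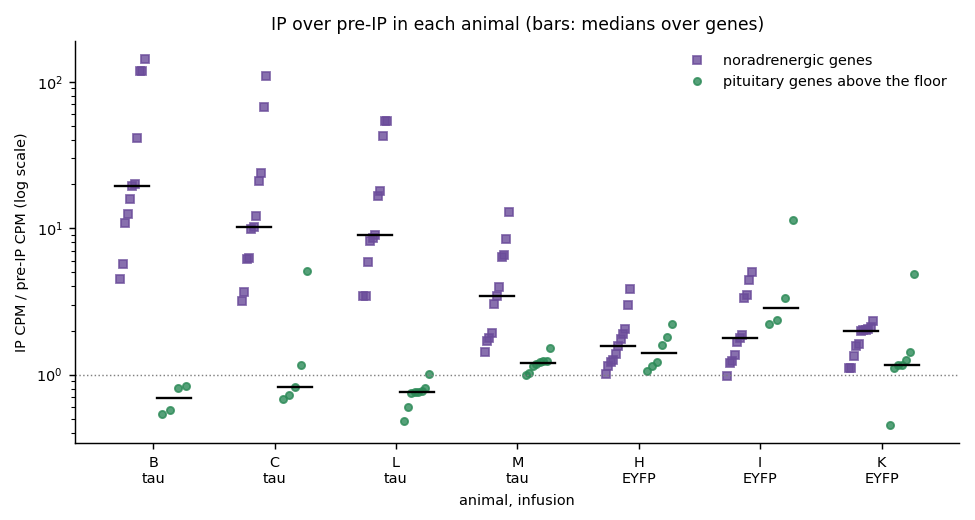
IP CPM over pre-IP CPM on a log axis in each animal, with squares for 11 noradrenergic genes, circles for the pituitary genes above 3 counts in both fractions and bars for medians. In B, C and L the pituitary genes lie near or below 1, apart from Tshb at 5.06 in C, and the noradrenergic medians lie at 9.03 to 19.3.

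In the fit over all 14 libraries, edgeR's quasi-likelihood test of IP against pre-IP with treatment as a term, 5 of the 9 genes passed the filter on low counts. Their log2 changes were 0.24 for Pomc (SE 0.73), -0.10 for Gh (SE 1.28), -0.04 for Prl (SE 1.10), 0.04 for Tshb (SE 0.93) and 0.09 for Cga (SE 1.17). This fit does not pair the fractions of an animal, so its standard errors hold the spread between animals. A fit with the animal as a replicate block pairs them. Its values were 0.40 for Pomc (SE 0.14), 0.07 for Gh (SE 0.22) and 0.32 for Prl (SE 0.34). Tshb was 0.28 (SE 0.45) and Cga 0.21 (SE 0.24) with the block. Without the block the median change of the 5 was 0.04, against -0.0036 over all genes tested.

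Library number range was then described, because it sorts the animals as the pituitary genes do. In pre-IP, K, L and M all exceeded B, C, H and I for 7 of the 9 genes, and for 6 of the 7 that had at least 10 counts in at least 3 of these libraries, against 5.99% of all genes past that filter. In IP this held for 6 of the 9 and for 5 of the 7 past the filter, against 2.44%. Ghrhr in pre-IP and Pou1f1 in IP reached 10 counts only in K, L and M. They thus passed the filter only through the animals where they are high. The genes were also noticed for this pattern, so nothing is read from these shares. The edgeR fit on the pre-IP libraries with treatment as a term gave log2 differences, from 17 over up to 11, of 6.14 for Gh (SE 1.00), 4.41 for Prl (SE 0.88), 3.13 for Pomc (SE 0.34), 5.75 for Cga (SE 0.84), 3.92 for Tshb (SE 0.96), 5.84 for Fshb (SE 1.15) and 6.19 for Ghrhr (SE 1.17). Pou1f1, with 8 counts in the pre-IP of K, and the short Lhb entry did not pass the filter on low counts in this fit. The longer Lhb entry passed it, with a log2 difference of -0.53 (SE 0.49). When each animal was left out in turn, the values ran from 4.57 to 7.16 for Gh, 3.55 to 5.61 for Prl, 2.71 to 3.44 for Pomc, 4.05 to 6.33 for Cga, 2.34 to 5.44 for Tshb, 3.22 to 6.59 for Fshb (not fitted without B) and 4.03 to 7.25 for Ghrhr, and the lowest of each range was the value without L. These are the differences for which the genes were noticed, so they are given without a call. What else differed with the library numbers cannot be told apart from the animals that carry them.

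Tau was compared with EYFP, the contrast of the study, in each fraction. In pre-IP the log2 differences were 3.86 for Gh (SE 1.81), 0.91 for Prl (SE 1.42), 1.02 for Pomc (SE 0.95), 4.37 for Cga (SE 1.66), 3.25 for Tshb (SE 1.27), 7.80 for Fshb (SE 2.07) and 4.18 for Ghrhr (SE 1.67). None of these 7 was called by edgeR, as 0% of 19197 genes were (545 genes at an unadjusted p under 0.05, and 0 by DESeq2). Fshb had 22, 1954 and 226 pre-IP counts in tau animals B, L and M and at most 4 in the other animals. Without B, L or M it was not fitted in pre-IP, so it passed the filter on low counts only through tau animals. Its difference of 7.80 is therefore a description only. In IP the 7 genes fitted ranged from 0.46 for Prl (SE 1.37) to 6.14 for Fshb (SE 2.15), none was called, and again 0% of 19472 genes were (2336 at an unadjusted p under 0.05, and 342 by DESeq2, none of them a pituitary gene). In neither fraction did all tau animals lie above or below all EYFP animals for any of the 9 genes. The share of all genes with such a split was not taken, so this is a description and no result about these genes.

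The size of these differences depended on which animals entered and on the library number range. Without animal L the pre-IP value of Gh was 1.21 (SE 1.38), that of Cga 1.68 (SE 1.22), that of Tshb 0.80 (SE 0.79), and Prl turned to -1.07 (SE 1.29) and Pomc to -0.13 (SE 0.83). In IP without L, Gh was 0.97 (SE 1.56), Prl -1.05 (SE 1.33) and Pomc -0.41 (SE 0.84). Without K the pre-IP values were instead 6.42 for Gh (SE 2.22) and 3.52 for Prl (SE 1.63). The library number range was also entered as a covariate. In pre-IP Gh was then 1.35 (SE 0.94), Prl 0.09 (SE 0.83), Pomc 0.64 (SE 0.33) and Tshb 1.23 (SE 1.05). Cga was 3.29 (SE 0.97), Fshb 6.99 (SE 1.65) and Ghrhr 3.33 (SE 1.29). For Fshb the limit set by the filter applies here as it does without the covariate. In IP with this covariate, Gh was 0.27 (SE 1.00), Prl -0.43 (SE 0.56), Pomc 0.01 (SE 0.33) and Tshb 1.04 (SE 1.31). Cga was 1.45 (SE 0.93), Fshb 2.15 (SE 2.31) and Pou1f1 1.71 (SE 0.78). None of these values was called. With no filter on low counts, edgeR called 6 of 8 pituitary genes higher in tau pre-IP (Gh, Cga, Tshb, Fshb, Pou1f1 and Ghrhr), among 0.136% of all genes. With no filter and without L, it called Gh, Cga and Fshb higher and Prl lower (log2 difference -1.05), among 0.925% of all genes. In that fit the standard error was 0.16 for Gh and 0.16 for Prl, against 1.38 and 1.29 with the filter at nearly the same changes. The tau and EYFP animals overlapped for both genes. The calls with no filter therefore do not hold the spread between animals that the filtered fits hold.

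Other genes of the pituitary were taken from a list of 19 transcription factors of its lineages, of which 16 were fitted. In the pre-IP range comparison 3 were higher from 17 and 1 lower, where 1.43% of all genes were higher and 2.22% lower. Pitx1, a factor of the whole anterior lobe, was higher by 3.38 (log2, SE 0.64, edgeR adjusted p 0.0295), with 7.29, 1.39 and 0.675 CPM in L, M and K and 0.154 to 0.377 in the others. Lhx3, which acts early in the gland and also in brainstem neurons, was higher by 1.10 (SE 0.24, edgeR adjusted p 0.0368), and Gata2, a factor of thyrotrophs and gonadotrophs that neurons also use, by 0.84 (SE 0.14, edgeR adjusted p 0.0231). Otx2, which choroid plexus also expresses, was lower by 1.10 (log2 difference -1.10, SE 0.15, edgeR adjusted p 0.0179). Among fits that each left out 1 of the 7 animals, Pitx1 passed in 3, Lhx3 in 2, Gata2 in 3 and Otx2 in 5. The median of the 16 was 0.28, against 0.01 over all genes. The range was taken up because it sorts the animals as the pituitary genes do. For other pituitary genes these edgeR adjusted p-values are therefore a description and no separate support.

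Several factors were raised in L alone. Six6 had 4.02 CPM in the pre-IP of L and at most 0.596 in the other pre-IP libraries, and Tbx19, the corticotroph factor, 2.03 against at most 0.365. Of 10 receptors through which the gland is controlled, 9 were fitted and 1 was called lower in the range comparison, the glucocorticoid receptor Nr3c1 (log2 difference -0.67, SE 0.11, edgeR adjusted p 0.0210), which most cell types express and which passed in 3 of the 7 fits that left out an animal. Gnrhr, the gonadotroph receptor for the releasing hormone, had 1.67 and 1.58 CPM in the fractions of L and at most 0.255 elsewhere. These genes were named after their values were seen, apart from those that passed a test.

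Genes of secretory granules are shared by endocrine cells and neurons. Of the 11 listed (among them Chga, Scg2, Cpe and Pcsk1), 0 were called in the range comparison, and their summed pre-IP level was 4026 to 4355 CPM in K, L and M and 4262 to 4402 CPM in the others. In IP against pre-IP, where edgeR called 31% of all genes, Chgb (log2 0.59, edgeR adjusted p 0.0072), Scg3 (0.56, edgeR adjusted p 0.0020), Pcsk1 (0.67, edgeR adjusted p 0.0308) and Scg5 (0.27, edgeR adjusted p 0.0379) rose and Vgf fell (-0.52, edgeR adjusted p 0.0258). Scg2 passed with the replicate block (0.31, edgeR adjusted p 0.0242), as 32.6% of all genes did.

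Genes downstream of the hormones came next. Of 7 genes induced by growth hormone or prolactin signalling, including Igf1, Cish and Socs2, 0 were called in the range comparison, with summed pre-IP levels of 40.4 to 53.2 CPM in K, L and M and 46.5 to 60.4 CPM in the others. Of 10 hormone and melanocortin receptors 7 were fitted and 0 were called in it, while their summed pre-IP levels of 14.7 to 16.0 CPM in K, L and M lay below the 18.2 to 19.9 CPM of the others. In IP against pre-IP the prolactin receptor Prlr rose by 1.22 (edgeR adjusted p 0.0056), the melanocortin receptor Mc4r fell (-0.44, edgeR adjusted p 0.0299), and Cish fell (-0.58, edgeR adjusted p 0.0068). Igfbp3 was lower by edgeR (-0.44, edgeR adjusted p 0.0390) and missed 0.05 with the replicate block (edgeR adjusted p 0.0575).

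Neighbouring tissues were read from their own markers. The hypothalamic genes Avp, Oxt, Hcrt and Pmch did not follow the pituitary genes: Avp (vasopressin) had 47.1 CPM in the pre-IP of L but 0.355 in M and 0.657 in K, against 3.43 in B, 51.2 in C, 15.1 in H and 29.9 in I. Hcrt (hypocretin) had 19.5 CPM in L, 0.129 in M and 0.219 in K, against 9.94 to 34.6 in the others, and Oxt and Pmch showed the same split. Sst (somatostatin), which brainstem neurons also make, had 162, 165 and 154 CPM in the pre-IP of L, M and K against 118 to 145 in the others, and Crh 8.71, 12.9 and 15.5 against 7.68 to 9.92. Of the 14 listed genes, K, L and M all lay above the others in pre-IP for 1 (Sst) and all below for 2 (Pmch and Tac2). Of the 14, 13 were fitted and 0 called in the range comparison, with a median of -0.56. The choroid plexus gene Ttr had 116 CPM in L, 23.3 in M and 1272 in K, against 763 to 1595 in the others, so it was high in 1 of the 3 animals with the highest pituitary levels. The 6 pineal genes summed to at most 1.83 CPM in any library. Of 6 cerebellar genes, Gabra6 (-1.55, edgeR adjusted p 0.0440) and Calb1 (-0.97, edgeR adjusted p 0.0356) were lower from 17, and of 3 fitted genes of posterior lobe glia, Col25a1 was lower (-0.97, edgeR adjusted p 0.0179). These 3 passed in 1, 3 and 5 of the 7 fits that left out an animal. Summed haemoglobin and Alas2 levels were 476 to 876 CPM in K, L and M and 657 to 909 CPM in the others in pre-IP. The part of these tissues in the pituitary levels was not tested.

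**Figure D4:**
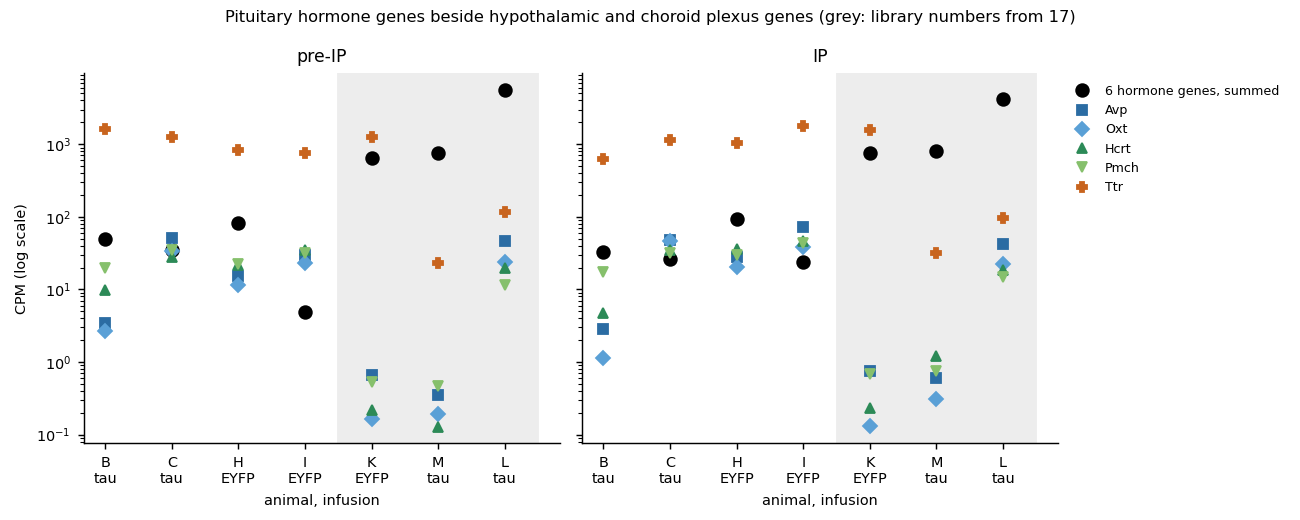
CPM on a log axis of the 6 summed hormone genes (Gh, Prl, Cga, Tshb, Fshb and Lhb), of the hypothalamic genes Avp, Oxt, Hcrt and Pmch and of the choroid plexus gene Ttr, for each animal in pre-IP (left) and IP (right). Avp lies at 0.355 to 0.760 in K and M, where the hormone genes are high, and at 42.9 to 47.1 in L.

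The genes whose pattern came closest to that of the 6 summed hormone genes were sought among 20833 entries with at least 10 counts in at least 3 libraries, by Pearson's correlation of log2(CPM + 0.1) over the 14 libraries. The libraries come in pairs from 7 animals and share depth and preparation, so the values are descriptions. Pomc, which is not in the sum, had r of 0.98, Pou1f1 0.88 and Ghrhr 0.87, at places 2, 9 and 11 when the summed genes were ranked too. Pou1f1 and Ghrhr reached 10 counts only in K, L and M, so they passed this filter only through the animals where the sum is high. The 9 genes were also noticed for this pattern, so nothing is read from their places. Outside the 9 genes the first 10 were Oacyl (0.92), the epithelial adhesion gene Epcam (0.90), Pitx1 (0.90), Bpifa1 (0.89), Tmem30b (0.87), Rab17 (0.85), the noncoding 5730403I07Rik (0.83), Neurod4 (0.82), Gnrhr (0.82) and Gm47691 (0.82). The median over all genes outside the 9 was 0.01. Of these 10, Pitx1, Neurod4 and Gnrhr were already on the pituitary lists. Some of the others were near the floor. Tmem30b, Rab17 and Gm47691 had at most 1.01, 0.383 and 0.991 CPM, each in the pre-IP of L. They had 0 in several libraries, where the added 0.1 sets the value.

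Epcam, which hormone cells of the anterior lobe express as epithelium does, had 6.57 CPM in the pre-IP and 9.07 in the IP of L, 0.999 and 1.03 in M, and 0.912 and 1.19 in K, against 0.043 to 0.753 in the others. Oacyl had 1.76 and 1.34 CPM in L and 1.26 and 0.939 in K, but 0.451 and 0.497 in M, close to the 0.040 to 0.385 of the others. Bpifa1, an airway secretory gene, was as high in M (1.16 and 0.727 CPM) and K (0.876 and 1.02) as in L (1.01 and 0.750). Without the 2 libraries of L, r was 0.87 for Oacyl, 0.90 for Bpifa1, 0.82 for Epcam and 0.80 for Pitx1, and 0.65 for Gnrhr and Gm47691. Over the 7 pre-IP and the 7 IP libraries, Pitx1 had r of 0.91 and 0.94.

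**Figure D5:**
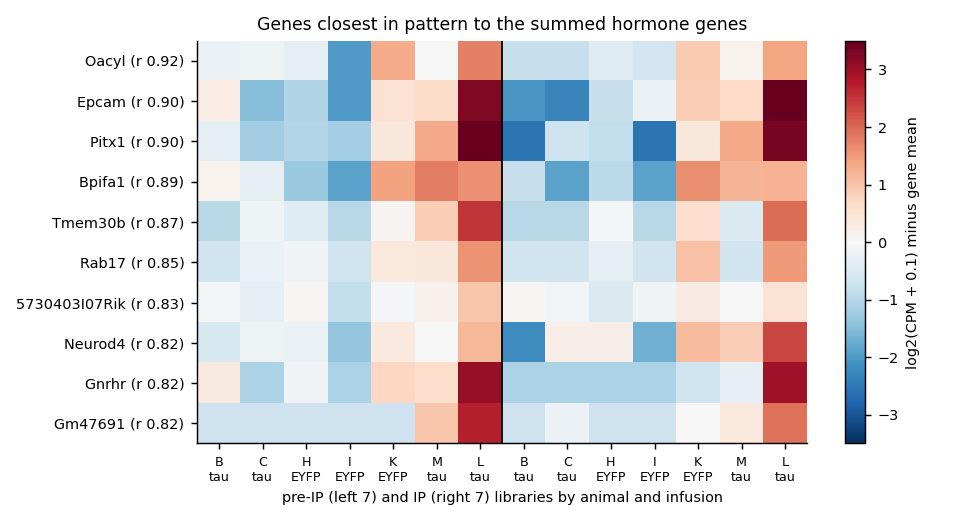
Colour gives log2(CPM + 0.1) minus the mean of the gene over 14 libraries, for the 10 genes outside the 9 with the highest correlation to the summed hormone genes, with pre-IP libraries at the left and IP libraries at the right. L is the reddest column for most genes in both fractions, whereas Bpifa1 is as high in K and M.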

How the data were processed

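The authors' table gives raw counts of reads, as whole numbers, for each gene in each library. Per the submitters' processing notes, FastQC, Trim Galore, STAR and featureCounts were used with GRCm38 (mm10); versions, use of strand and treatment of shared reads are not given in the sources used here. Per the labels' protocols, polyadenylated RNA was amplified with SMART-Seq v4 and Nextera XT kits. The header has 2 stray empty cells, so columns were read by position; human tau construct counts equalled the deposited sample sheet in 14 libraries. Exon lengths, RNA integrity numbers and concentrations are the authors' deposited values.

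CPM is counts per 1000000 counts of a library. Tests used the quasi-likelihood test of edgeR 4.0.16 (R 4.3.3) with filterByExpr, TMM scaling and Benjamini-Hochberg adjustment at 0.05; DESeq2 1.42.0 was an alternative. A standard error is the log2 change over the square root of F. The fits were tested on simulated counts. The labels do not say more of the replicates than that each letter is an animal, so p-values within a fraction measure the spread between these animals. With no filter on low counts the standard errors of the pituitary genes were smaller, so those p-values hold less of that spread. The fit of IP against pre-IP without the block enters both libraries of an animal as separate samples. Its p-values do not use the pairing. The animal letter pairs the fractions: deviations from group means correlated by 0.15 to 0.36 in the 7 animals. IP and pre-IP of an animal share their tissue, and both treatment comparisons share their animals.

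The pituitary genes, the lists and the settings were chosen with earlier results of these data known. From 15 other lists, genes past the threshold were named, at most the 5 largest per direction and list. Of 3766 entries without a symbol, 3669 were named from the reference table by identifier. Among genes of these other lists, those called in IP against pre-IP only with the replicate block were, beyond Scg2, Tbx19 (-2.30), Lhx3 (-0.70), Drd2 (-0.55), Mc3r (-0.82), Cbln3 (-0.67), Alas2 (-0.63) and Hba-a2 (0.31). In the fit without the block, Gata2 (-0.85), Crhr1 (-0.82), Sox9 (-0.67) and Neurod2 (-0.57) were lower in IP and Nr3c1 (0.79), Cartpt (0.35) and Npy (0.56) higher, and all 11 noradrenergic genes fitted were higher; from 17, Dbh (0.96) and Slc6a2 (1.03) were higher. No listed gene was called in tau against EYFP by edgeR with the filter.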

Additional observations from a re-analysis of the deposited data

Results flagged for a closer look

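Within a group of 4 tau libraries, a library was singled out where its gap to the nearest other, over the range of the group, passed Dixon's 95% critical value for 4 samples. Of 18 gene and group combinations examined, 12 passed. Chance passes about 1 group in 20, but the genes were chosen for their levels in these libraries and are not independent of each other, so the number is a description and is not set against that rate. In 11 of the 12 the library was that of animal L, above the others. In tau pre-IP the ratios were 0.8766 for Gh, 0.8362 for Prl, 0.8895 for Cga, 0.8815 for Tshb, 0.8938 for Fshb, 0.8899 for Pou1f1 and 0.9176 for Ghrhr. In tau IP they were 0.8336 for Gh, 0.8307 for Cga, 0.8342 for Fshb and 0.8333 for Pou1f1. Pomc passed in neither fraction. The other case was the longer entry of Lhb in tau IP, with 0.8432, where animal C had 1.13 CPM and the next library 0.178 CPM.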

How the results depend on the processing

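The count of genes called in tau against EYFP pre-IP, 0 by edgeR, was 44 with no filter on low counts and 292 with no filter and without L, a setting chosen after seeing the data; leaving out each animal gave 0 to 1. In IP, 0 became 342 with DESeq2 and 113 with no filter, and 0 to 128 when an animal was left out, with 128 without M. For IP against pre-IP, 5828 genes became 6119 with the animal as replicate block and 1218 in EYFP animals alone. For the library number range, 701 genes (275 higher) became 2011 with DESeq2 and 2036 with no filter, and 1 to 1190 when an animal was left out: 1 without B or I, 78 without C, 92 without H, 138 without K, 113 without M and 1190 without L. The cause of these shifts was not tested.

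The mean log2 IP over pre-IP of the summed hormone genes over 7 animals was 0.19 (SD 0.96), 0.23 with TMM-scaled totals and 0.16 with a pseudocount of 1 CPM. Leaving out each animal, chosen after seeing the data, gave -0.16 to 0.31, and it was negative without I alone (-0.16, SD 0.35). Of the log2 differences of the pituitary genes and the longer Lhb entry, 5 of 98 values under other settings moved by more than the spread in the pre-IP treatment comparison, 3 of 90 in IP, 0 of 83 for IP against pre-IP and 2 of 86 for the range. This spread is an SD and is wide, 3.53 for Gh in the pre-IP treatment comparison. The fall of Gh there from 3.86 to 1.21 without L was thus not counted as moved, and these counts do not show stability. Prl in tau against EYFP pre-IP, 0.91 and not called, was -1.07 (SE 1.29) without L and, with no filter and without L, -1.05 (SE 0.16) and called. Fshb in K (2 and 6 counts) and Pou1f1 and Ghrhr outside L are limited by depth.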
